A study of Mus musculus with 10 samples.

Results

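The tumour necrosis factor (TNF) superfamily is described here in mouse acute myeloid leukaemia (AML) cells that grew in recipients with and without lymphocytes. The genes were 43 symbols chosen by name, namely 13 ligands, 23 receptors and 7 cytoplasmic adaptors (Traf1, Traf2, Traf3, Traf5, Traf6, Tradd and Fadd). Other genes of these kinds, such as Fasl, Cd40lg, Tnfsf11, Relt and Traf7, were counted with the 60 further pathway genes below. The 43 symbols matched 44 of the 38215 genes in the deposited table of expected counts, because Tnfrsf22 was listed under 2 overlapping identifiers. The leukaemia was made by retroviral expression of AML1-ETO and NrasG12D from MSCV-IRES-GFP in lineage-depleted bone marrow, and it was grown once in Rag2-/-γc-/- mice. GFP+ cells from those spleens were then given to C57BL/6J mice, which are immunocompetent, or again to Rag2-/-γc-/- mice, and GFP+ spleen cells of the second recipients were sequenced. There were 5 libraries from C57BL/6J recipients (numbered 1, 3, 4, 5 and 6 in the sample titles) and 5 from Rag2-/-γc-/- recipients (numbered 7 to 11). All 10 leukaemias carried both oncogenes, and all had passed through a first immunodeficient host. Ages and sexes of the mice are not stated in the labels used here, nor is it stated whether the recipients got cells of 1 or several primary leukaemias, so p-values measure the spread between these recipients.

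TNF superfamily ligands are trimeric proteins that cluster their receptors on the cell surface. Receptors such as Tnfrsf1a and Fas carry a death domain and recruit Tradd or Fadd, which can lead to caspase-8 activation. Others recruit TRAF proteins and activate NF-κB and MAP kinases, and Traf3 restrains the alternative NF-κB pathway by keeping the kinase NIK (Map3k14) unstable. Rag2-/-γc-/- mice lack mature T and B cells and NK cells, which are main sources of many of these ligands.

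Per library, 28157745 to 62461126 expected counts were assigned to genes. Levels are CPM, that is counts relative to the library total, scaled by TMM normalisation, and within a sentence the values follow the library order given above, first C57BL/6J and then Rag2-/-γc-/-. Among the markers of the leukaemia, Itgam had a mean of 760 CPM, the gene of PU.1 383 CPM and Cd34 232 CPM, while Mpo, which encodes myeloperoxidase, was at 0.308 CPM. B and plasma cell markers (12 genes) summed to 159, 18.5, 6.55, 5.66 and 24.5 CPM in the C57BL/6J libraries and to 1.44 to 2.54 CPM in the Rag2-/-γc-/- libraries. The groups differed (exact permutation test over every way to assign libraries to the groups, two-sided, p = 0.0218 adjusted over 11 marker lists), and C57BL/6J library 1 stood apart. T cell markers summed to 66.7 to 123 against 22.3 to 48.1 CPM (exact permutation test, adjusted p = 0.0218). Cd8a made up most of that sum, and without it the list was at 57.5, 18.1, 8.65, 3.92 and 11.6 CPM against 6.26 to 9.18 CPM. Dendritic cell markers, mostly Wdfy4 and Irf8 (means of 1950 and 1650 CPM), summed to 5320 to 6450 against 3510 to 5100 CPM (exact permutation test, adjusted p = 0.0218). The sum of megakaryocyte and platelet markers was also higher in C57BL/6J libraries (6.99 to 12.1 against 1.8 to 7.22 CPM, exact permutation test, adjusted p = 0.035). Itga2b made up most of it in those libraries (4.25 to 9.16 against 1.14 to 2.74 CPM). Pf4 overlapped between the groups (0.0252 to 2.72 against 0.359 to 3.74 CPM). Sums for erythroid cells (15.2 to 147 against 75.0 to 244 CPM) and for mast cells and basophils (0.0761 to 0.435 against 0.607 to 1.4 CPM) were lower in C57BL/6J libraries (exact permutation test, adjusted p = 0.0436 and 0.0218). In the latter list 5 of 6 genes were under 1 CPM everywhere, and Fcer1a made up most of the Rag2-/-γc-/- sums. The 10 leukaemia markers also had a lower sum (1360 to 1810 against 1540 to 2460 CPM, exact permutation test, adjusted p = 0.0498). In that list Itgam (398 to 789 against 652 to 1160 CPM) and Cd34 (98.6 to 169 against 202 to 489 CPM) went with the sum. Kit (3.21 to 7.52 against 0.163 to 0.434 CPM) and Lyz2 (145 to 212 against 83.9 to 166 CPM) leaned the other way. Macrophage markers (36.4 to 235 against 168 to 420 CPM) and NK cell markers (2.35 to 14.6 against 0.849 to 4.39 CPM) overlapped between the groups (exact permutation test, adjusted p = 0.116 and 0.0764). Neutrophil and stroma markers did so too (exact permutation test, adjusted p = 0.497 and 0.532). The part of any of these lists in the members' values was not tested. Within the Rag2-/-γc-/- group libraries 7, 8 and 9 stood apart from 10 and 11 in many genes, so values without 7, 8 and 9 are given for the members past the threshold and for the receptors and adaptors closest to it.

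The GFP+ spleen cells held RNA of all 7 adaptors and of most receptors, but of few ligands. Of 13 ligands, 3 had a mean of at least 10 CPM over the 10 libraries and 8 were under 1 CPM. Of 24 receptor genes, 9 were at 10 CPM or more and 9 were under 1 CPM. Of the 7 adaptors, 6 were at 10 CPM or more, and Traf5 ranged from 6.83 to 12.7 CPM. Per kilobase of exon, a scale on which levels of different genes can be compared, the ligands with the highest means were Tnf (39.6 CPM per kb), Tnfsf9 (26.5), Ltb (5.85) and Tnfsf8 (5.46). Among the 23 receptors listed, the order on that scale was Tnfrsf1a (40.6), Tnfrsf13c (28.9), Ltbr (27.3) and Tnfrsf13b (14.8), while Relt, outside the list, was at 25.5. Among adaptors it was Tradd (29.9), Traf6 (8.33), Traf3 (5.75) and Traf2 (5.04).

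**Figure D1:**
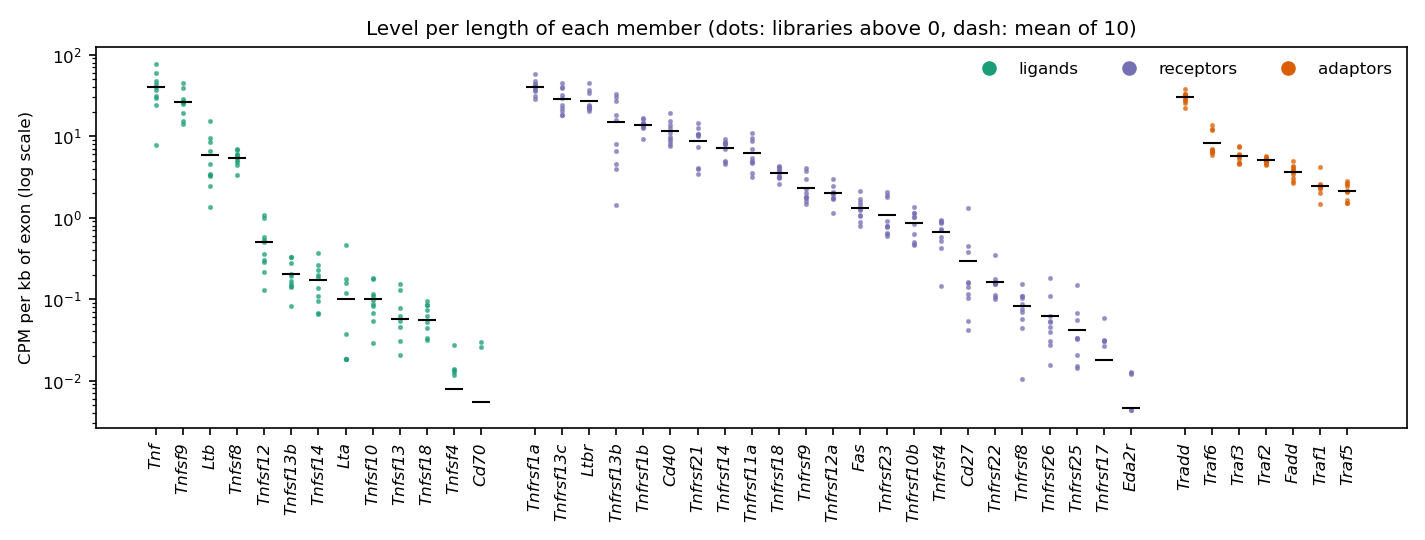
Level of each member in CPM per kb of exon on a log axis, with 1 dot per library above 0 and a dash at the mean of the 10 libraries. Tnf (39.6), Tnfrsf1a (40.6) and Tradd (29.9) lead the ligands, receptors and adaptors, and 8 of 13 ligands lie under 1 CPM before division by length.

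The filter on low counts removed 10 of the 44 genes, which were not tested. They were the ligands Cd70, Lta, Tnfsf4 (OX40 ligand), Tnfsf13 (APRIL) and Tnfsf18 (GITR ligand), and the receptors Eda2r, Tnfrsf17 (BCMA), Tnfrsf25, Tnfrsf26 and the second identifier of Tnfrsf22. Their highest value in any library lay between 0.0247 CPM (Cd70) and 0.641 CPM (Lta). For Lta, Tnfrsf25, Tnfrsf26 and the second Tnfrsf22 that highest value was in C57BL/6J library 1, the library with the most B and T cell RNA, whose part in these values was not tested. Lta lies 1.16 kb from Tnf on chromosome 17, where Tnf reached 125 CPM.

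Between the groups, 5 of the 34 tested genes changed in RNA of the GFP+ cells. The BAFF receptor Tnfrsf13c and the costimulatory receptor Cd27 were higher in C57BL/6J recipients, while TACI (Tnfrsf13b), RANK (Tnfrsf11a) and Traf3 were lower. Threshold and test were an adjusted p of 0.05 in edgeR's quasi-likelihood F test with Benjamini-Hochberg adjustment over 13966 genes. The 2 higher members are 5.88% of 34, beside 3.32% of all tested genes, and the 3 lower ones are 8.82%, beside 4.47%. The median log2 fold change (C57BL/6J minus Rag2-/-γc-/-, as throughout) was -0.28 over the 34 members and 0.0 over all genes, with 14 members above 0 and 20 below. The 5 values of a group lay wholly above those of the other in 2 members (all genes 4.13%) and wholly below in 4 (all genes 4.37%), the 4 being the 3 lower ones and Ltbr. An unadjusted p under 0.05 was found for 18 of 34 members (52.9%, all genes 25.7%). No test compared the family with other genes, so these shares are a description. In RNA of whole cell populations, fewer cells with a transcript cannot be told apart from less of it per cell.

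**Figure D2:**
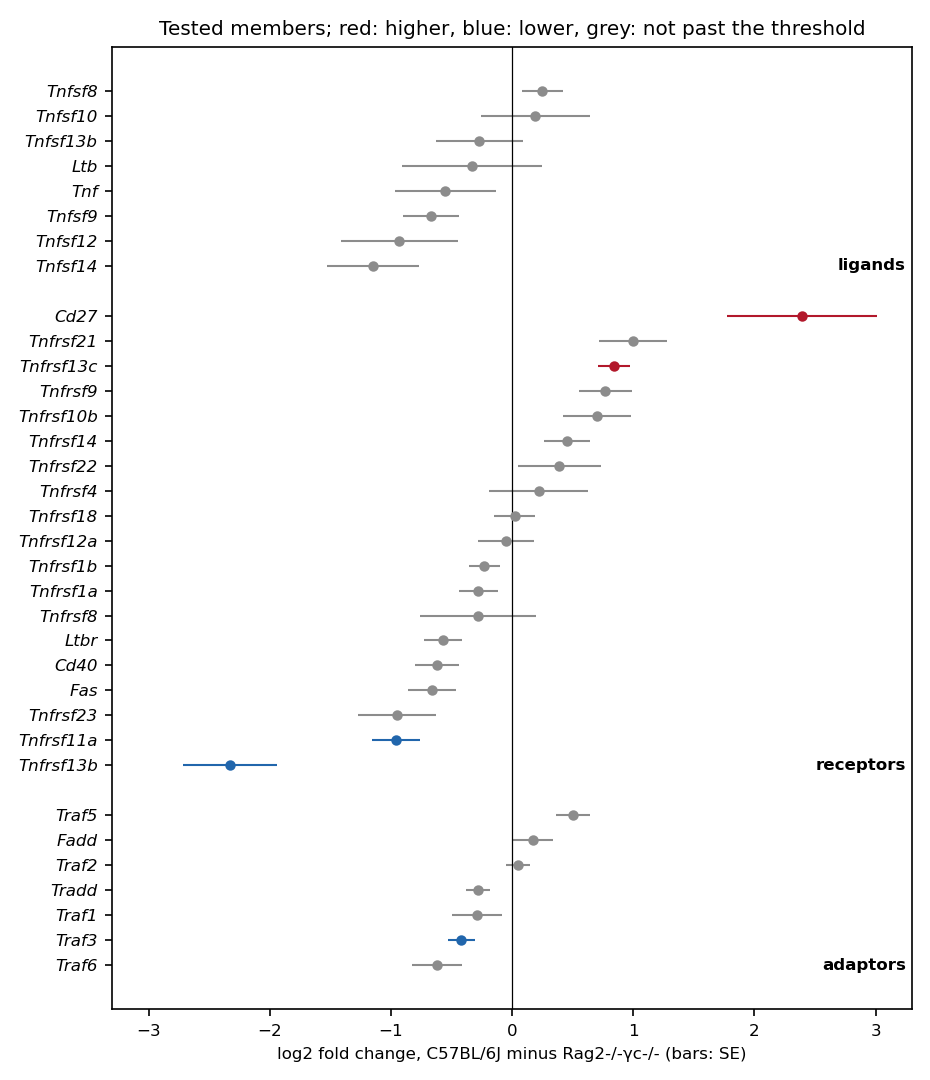
Log2 fold change of the 34 tested members, C57BL/6J minus Rag2-/-γc-/-, with bars of 1 SE, in blocks of ligands, receptors and adaptors. Red marks the 2 members past the threshold that were higher (Cd27 at 2.39, Tnfrsf13c at 0.84), blue the 3 that were lower (Tnfrsf13b at -2.33, Tnfrsf11a at -0.96, Traf3 at -0.42) and grey the rest.

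Of the 34 tested members, the lowest log2 fold change belonged to TACI, a receptor for BAFF and APRIL that is best known for restraining B cells and supporting plasma cells. Tnfrsf13b (ENSMUSG00000010142, chr11:61126755-61149372, plus strand, GRCm38) had 18.8, 13, 11.3, 22.5 and 4.03 CPM in C57BL/6J libraries and 76.4, 92.3, 85.2, 44.8 and 51.8 CPM in Rag2-/-γc-/- libraries. All 5 Rag2-/-γc-/- values lay above all 5 C57BL/6J values, and library 6 was the lowest of all. The means were 13.9 ± 7.11 and 70.1 ± 20.8 CPM (SD, n = 5 each), a 5.03-fold lower level in C57BL/6J recipients. Its log2 fold change was -2.33 ± 0.39 (SE; adjusted p = 0.00436, edgeR). It stayed past the threshold when any 1 library was left out, at -2.57 to -2.09 (edgeR adjusted p up to 0.0155). Without libraries 7, 8 and 9, which leaves 2 Rag2-/-γc-/- libraries, it was at -1.79 (edgeR adjusted p = 0.109).

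The BAFF receptor, through which BAFF keeps mature B cells alive, moved the other way. Tnfrsf13c (ENSMUSG00000068105, chr15:82221744-82224339, minus strand) had 82.0, 80.1, 66.5, 59.6 and 91.9 CPM in C57BL/6J libraries and 37.7, 45.6, 37.3, 41.9 and 50 CPM in Rag2-/-γc-/- libraries. Again the groups did not overlap, here with library 6 the highest. The means were 76.0 ± 12.9 and 42.5 ± 5.39 CPM (SD, n = 5 each), 1.79-fold higher in C57BL/6J recipients, or 0.84 ± 0.13 on the log2 scale (SE; adjusted p = 0.00311, edgeR). Leaving out any 1 library kept it past the threshold, at 0.76 to 0.91 (edgeR adjusted p up to 0.0117), and without libraries 7, 8 and 9 it was at 0.73 (edgeR adjusted p = 0.0939). Tnfrsf13c is best known from B cells. The 12 B and plasma cell markers summed to 159, 18.5, 6.55, 5.66 and 24.5 CPM in the C57BL/6J libraries. In the Rag2-/-γc-/- libraries they summed to 1.44 to 2.54 CPM. Leaving out library 1 gave 0.81 for Tnfrsf13c and -2.46 for Tnfrsf13b on the log2 scale. The B cell, T cell, dendritic cell and megakaryocyte lists had higher sums in C57BL/6J libraries. Cd8a made up most of the T cell sums there, and Itga2b most of the megakaryocyte sums. The part of these lists in the difference of Tnfrsf13c was not tested.

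**Figure D3:**
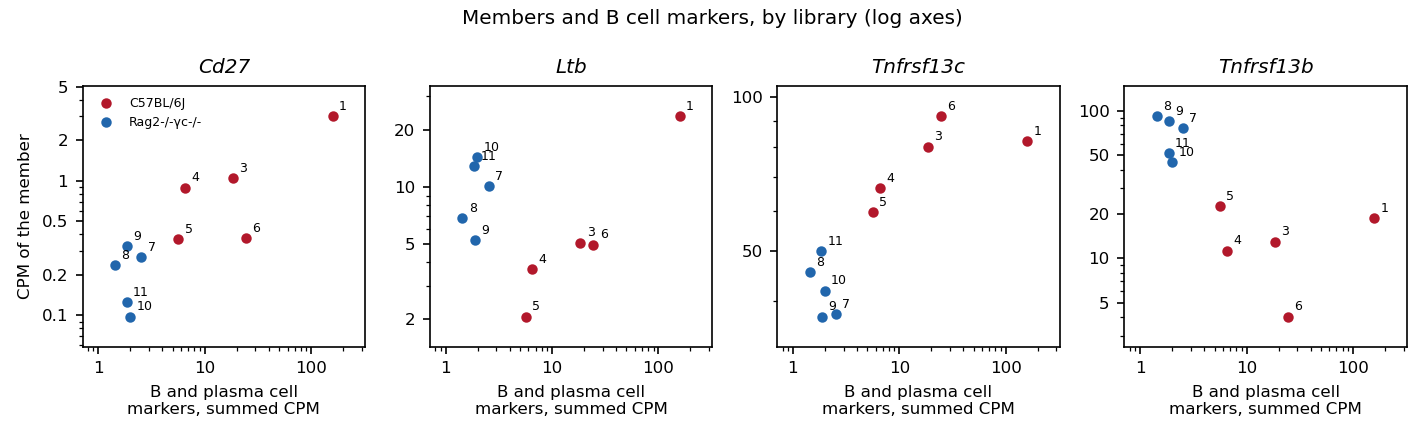
CPM of Cd27, Ltb, Tnfrsf13c and Tnfrsf13b against the summed CPM of 12 B and plasma cell markers, 1 numbered dot per library, red for C57BL/6J and blue for Rag2-/-γc-/-, on log axes that do not start at 0. Library 1, at 159 CPM of the markers, holds the highest Cd27 (3.02) and Ltb (23.6). Tnfrsf13c was 59.6 to 91.9 CPM in C57BL/6J libraries and 37.3 to 50 CPM in Rag2-/-γc-/- libraries.

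As a ratio of CPM per kb of exon within each library, Tnfrsf13c to Tnfrsf13b was 6.06, 8.51, 8.12, 3.67 and 31.6 in C57BL/6J recipients. In Rag2-/-γc-/- recipients it was 0.684, 0.684, 0.607, 1.3 and 1.34. Per length, the BAFF receptor was thus above TACI in every C57BL/6J library and, by less, in libraries 10 and 11, and below it in libraries 7, 8 and 9. The pair was chosen after the values were seen, and the ratio was not tested. Of their ligands, BAFF (Tnfsf13b) ranged from 0.568 to 2.24 CPM and stood at -0.27 ± 0.36 on the log2 scale (SE; adjusted p = 0.647, edgeR), and APRIL (Tnfsf13) reached at most 0.253 CPM. The third receptor of these ligands, BCMA (Tnfrsf17), reached at most 0.0473 CPM.

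The DNA before the start sites of both genes and of Traf3, the called adaptor, is shown because AML1-ETO binds DNA through the Runt domain of AML1 (RUNX1) and because the family signals to NF-κB. The sequences are the 250 bases before the RefSeq start site on GRCm38.p6, read 5′ to 3′ on the strand of the gene, at chr15:82224381-82224630 for Tnfrsf13c, chr11:61126505-61126754 for Tnfrsf13b and chr12:111166120-111166369 for Traf3. Capitals mark a match to the RUNX motif TGTGGT or to the kappaB motif on either strand.
Tnfrsf13c: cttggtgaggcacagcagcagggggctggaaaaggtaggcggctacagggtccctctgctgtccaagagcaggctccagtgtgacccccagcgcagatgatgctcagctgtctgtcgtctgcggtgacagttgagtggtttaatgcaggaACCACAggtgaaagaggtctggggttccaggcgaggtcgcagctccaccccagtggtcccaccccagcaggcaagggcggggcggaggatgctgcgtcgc
Tnfrsf13b: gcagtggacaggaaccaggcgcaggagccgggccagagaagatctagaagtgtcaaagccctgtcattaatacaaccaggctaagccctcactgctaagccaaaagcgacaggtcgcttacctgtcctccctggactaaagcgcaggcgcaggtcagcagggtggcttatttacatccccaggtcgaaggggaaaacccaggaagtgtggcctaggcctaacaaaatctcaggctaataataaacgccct
Traf3: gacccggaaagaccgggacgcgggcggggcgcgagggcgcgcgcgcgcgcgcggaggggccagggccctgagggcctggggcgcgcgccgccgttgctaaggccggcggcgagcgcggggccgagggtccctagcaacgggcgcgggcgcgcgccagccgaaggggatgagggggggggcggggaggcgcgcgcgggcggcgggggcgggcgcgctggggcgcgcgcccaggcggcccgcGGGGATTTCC

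The window of Tnfrsf13c held 1 RUNX match, on the reverse strand and starting 100 bases before the start site, and that of Traf3 held 1 kappaB match, GGGGATTTCC, starting 10 bases before it. In the window of Tnfrsf13b neither motif was found, nor the interferon-related motifs TTCNNNGAA (GAS) and GAAANNGAA (ISRE core), and the same held for Tnfrsf11a and Cd27. Of 37 windows for the 34 member symbols in the RefSeq table, 6 (16.2%) held a RUNX match, beside 14% of all 32851 windows of this length. A kappaB match was in 5 (13.5%, all windows 7.25%), GAS in 8 (21.6%, all 7.02%) and the ISRE core in 7 (18.9%, all 7.13%). Both strands were searched, a window with several matches counted once, and in the 3 windows shown no base belonged to matches of different motifs. These matches are letters in the reference genome, and no binding was measured. The windows differed in base composition, with 63.2% G and C for Tnfrsf13c, 54.0% for Tnfrsf13b and 85.2% for Traf3.

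RANK, encoded by Tnfrsf11a (ENSMUSG00000026321, chr1:105780723-105847981, plus strand), is the receptor for RANKL that drives osteoclast formation from myeloid precursors. It had 19.0, 29.9, 28.4, 29.2 and 20.9 CPM in C57BL/6J libraries and 65.6, 56.7, 52.4, 32.0 and 41.2 CPM in Rag2-/-γc-/- libraries. The groups did not overlap, but library 10 was only just above the highest C57BL/6J value. The means were 25.5 ± 5.1 and 49.6 ± 13.2 CPM (SD, n = 5 each), 1.95-fold lower in C57BL/6J recipients, or -0.96 ± 0.20 on the log2 scale (SE; adjusted p = 0.015, edgeR). The call held without any 1 library (-1.08 to -0.84, edgeR adjusted p up to 0.0445), and without libraries 7, 8 and 9 the value was -0.52 (edgeR adjusted p = 0.293).

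Cd27, a costimulatory receptor of T cells, had the highest log2 fold change of the 34 tested members but a very low level. Cd27 (ENSMUSG00000030336, chr6:125232622-125237010, minus strand) had 3.02, 1.04, 0.888, 0.370 and 0.377 CPM in C57BL/6J libraries and 0.271, 0.237, 0.326, 0.098 and 0.126 CPM in Rag2-/-γc-/- libraries. These rest on 15 to 99 counts per C57BL/6J library and 3 to 16 per Rag2-/-γc-/- library, and library 1 alone held 99, so that Cd27 passed the filter on low counts mainly through the group in which it was higher. The log2 fold change was 2.39 ± 0.62 (SE; edgeR adjusted p = 0.0374), with means of 1.14 ± 1.1 and 0.212 ± 0.0966 CPM (SD, n = 5 each). Without C57BL/6J library 1 it was 1.63 (edgeR adjusted p = 0.0527), and without libraries 7, 8 and 9 it was 3.29 (edgeR adjusted p = 0.198). The call also ended when C57BL/6J library 3 or 4, or any of Rag2-/-γc-/- libraries 7, 8, 9 and 11, was left out, with an edgeR adjusted p up to 0.0831 over all such fits. Library 1 also had the most B cell markers (159 CPM, among them Cd79a at 38.3 CPM). The sums of T cell markers other than Cd8a (57.5 CPM) and of NK cell markers (14.6 CPM) were highest there too. The part of these lists in the Cd27 value was not tested. Cd27 overlaps Vamp1 on the opposite strand, which had a mean of 10.2 CPM, and whether reads were counted by strand is not given in the sources used here. Its ligand Cd70 had 2 counts in all 10 libraries together.

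**Figure D4:**
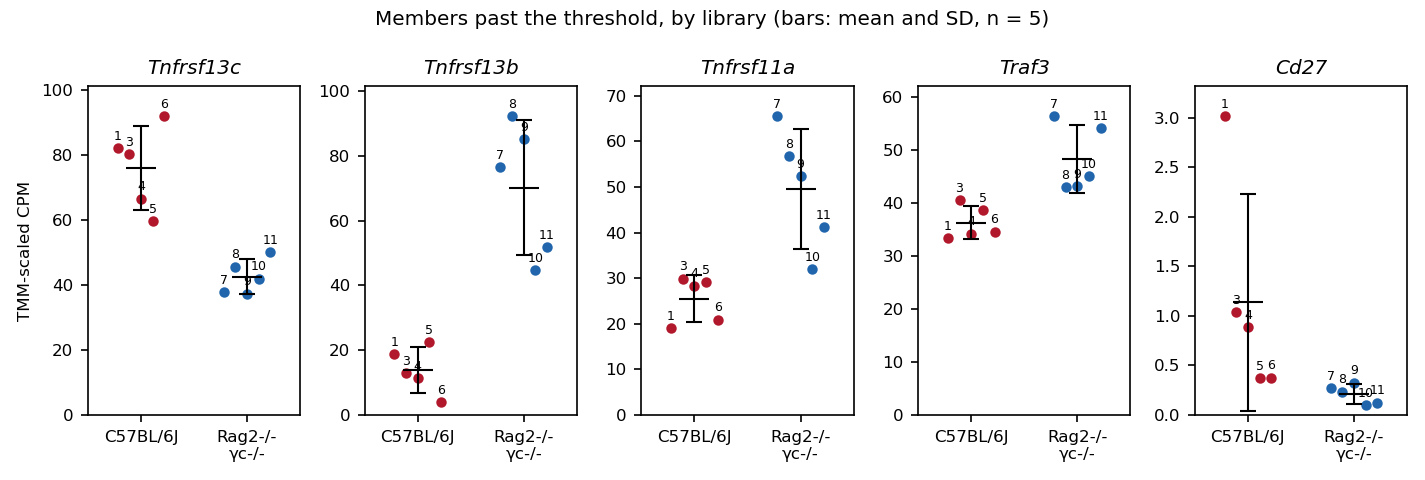
TMM-scaled CPM of the 5 members past the threshold in each library (numbered dots) with mean and SD (n = 5 per group), every axis starting at 0. The groups do not overlap in any of the 5 genes; in Cd27 library 1 (3.02 CPM) is far above the other C57BL/6J libraries, and in Tnfrsf11a library 10 (32.0 CPM) is the closest to the C57BL/6J values.

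Among the other receptors, 8 had an unadjusted p under 0.05 in edgeR and did not pass the threshold. With the 4 called receptors that made 12 of 19 tested (63.2%, all genes 25.7%). DESeq2, which called 12.6% of the genes it gave an adjusted p, called 6 of the 8, all but Tnfrsf10b and Tnfrsf14. limma-voom with quality weights called all 8, beside 46.7% of all genes. Tnfrsf21 (death receptor 6) had 40.8, 51.9, 44.3, 43.2 and 60.1 CPM against 16.6, 16.3, 14.3, 30.3 and 42.5 CPM (log2 fold change 1.00 ± 0.28 SE, edgeR adjusted p = 0.0541). Tnfrsf9 (4-1BB) had 10.1, 8.0, 11, 4.90 and 6.04 CPM against 4.78, 4.85, 4.02, 4.38 and 5.41 CPM (0.77 ± 0.22, edgeR adjusted p = 0.0528). In both genes the C57BL/6J values reached higher, and a single Rag2-/-γc-/- library, 11, lay within their range. Tnfrsf9 lies across Camta1, which is on the opposite strand and had a mean of 9.37 CPM. Tnfrsf10b, the receptor for TRAIL, had 3.42, 6.29, 5.58, 6.29 and 7.37 CPM against 2.48, 2.58, 2.71, 4.61 and 5.51 CPM (0.70 ± 0.28, edgeR adjusted p = 0.144). Tnfrsf14 (HVEM) had 9.99, 12.2, 11.9, 13.4 and 11.9 CPM against 7.04, 6.48, 6.84, 11.5 and 11.6 CPM (0.45 ± 0.19, edgeR adjusted p = 0.165). For these 2 receptors libraries 7, 8 and 9 were below every C57BL/6J library, and libraries 10 and 11 were within the C57BL/6J range. Without libraries 7, 8 and 9 the values on the log2 scale were 0.40 for Tnfrsf21, 0.71 for Tnfrsf9, 0.20 for Tnfrsf10b and 0.04 for Tnfrsf14 (edgeR adjusted p from 0.403 to 0.943).

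The lymphotoxin β receptor, which signals mainly through the alternative NF-κB pathway, differed in the opposite sense without overlap of the groups. Ltbr had 51.1, 52.5, 52.3, 48.5 and 53.7 CPM in C57BL/6J libraries and 106, 86.6, 80.1, 55.1 and 56.9 CPM in Rag2-/-γc-/- libraries (log2 fold change -0.57 ± 0.16 SE, edgeR adjusted p = 0.0551). The C57BL/6J values were within 48.5 to 53.7 CPM, and the Rag2-/-γc-/- values spread over a far wider range just above it. Cd40, the receptor for CD40 ligand of helper T cells, had 27.2, 33.0, 36.9, 25.8 and 31.1 CPM against 64.7, 51.8, 47.3, 29.7 and 43.2 CPM (-0.62 ± 0.18, edgeR adjusted p = 0.0619). Fas, the receptor for Fas ligand of cytotoxic cells, had 1.83, 2.64, 1.65, 2.20 and 2.16 CPM against 4.37, 3.50, 3.18, 2.94 and 2.55 CPM (-0.66 ± 0.20, edgeR adjusted p = 0.0656). In each of the 2 genes a single Rag2-/-γc-/- library (10 for Cd40, 11 for Fas) lay within the C57BL/6J range. Tnfrsf23, a decoy receptor for TRAIL in mice, had 2.57, 3.13, 3.58, 2.35 and 3.04 CPM against 8.07, 7.19, 7.46, 2.48 and 3.14 CPM (-0.95 ± 0.32, edgeR adjusted p = 0.0943). Libraries 7, 8 and 9 were at 7.19 CPM or more, and every other library was at 3.58 CPM or less. Tnfrsf23 and Tnfrsf22 are close relatives and neighbours on chromosome 7, so the division of shared reads between them is uncertain. Without libraries 7, 8 and 9 the values on the log2 scale were -0.11 for Ltbr, -0.24 for Cd40, -0.38 for Fas and 0.06 for Tnfrsf23 (edgeR adjusted p from 0.617 to 0.953).

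The main TNF receptor Tnfrsf1a, the most abundant receptor per length, had 73.8, 112, 93.2, 96.2 and 100 CPM in C57BL/6J libraries and 151, 122, 114, 80.6 and 108 CPM in Rag2-/-γc-/- libraries. The groups overlapped, and its difference of -0.28 ± 0.16 on the log2 scale did not pass the threshold (SE; adjusted p = 0.282, edgeR). The other TNF receptor, Tnfrsf1b, ranged from 34.9 to 63.8 CPM over the 10 libraries (-0.23 ± 0.13, edgeR adjusted p = 0.274). The remaining tested receptors were Tnfrsf12a (2.19 to 5.83 CPM), Tnfrsf18 (3.98 to 6.63), Tnfrsf4 (0.196 to 1.28), Tnfrsf8 (0.0362 to 0.531) and the first identifier of Tnfrsf22 (0.424 to 1.48). Their log2 fold changes lay between -0.28 (Tnfrsf8) and 0.39 (Tnfrsf22), and their unadjusted p in edgeR lay between 0.281 and 0.926.

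None of the 8 tested ligands passed the threshold in edgeR, an unadjusted p under 0.05 was found for 2 (25.0%, all genes 25.7%), and DESeq2 called 1 (Tnfsf9). limma-voom with quality weights called 3 (Tnfsf8, Tnfsf12 and Tnfsf14), beside 46.7% of all genes. Their median log2 fold change was -0.44, with 6 of 8 below 0. Tnf had 12.7, 65.6, 97.6, 39.1 and 48.5 CPM in C57BL/6J libraries and 125, 60.8, 51.1, 77.7 and 70.9 CPM in Rag2-/-γc-/- libraries (-0.55 ± 0.42 SE, edgeR adjusted p = 0.422). The spread within each group was large, from the lowest value in library 1 to the highest in library 7. Tnfsf9, the ligand of 4-1BB, had 18.0, 32.3, 36.6, 25.0 and 20.0 CPM against 58.4, 33.7, 34.3, 34.2 and 49.7 CPM (-0.67 ± 0.23, edgeR adjusted p = 0.0951). Tnfsf8, the ligand of CD30, had 21.3, 22.9, 26.8, 19.5 and 22.4 CPM against 12.6, 18.6, 16.7, 25.8 and 21.3 CPM (0.25 ± 0.17, edgeR adjusted p = 0.369). Both pairs of groups overlapped. Tnfsf14 (LIGHT), a ligand of Ltbr and HVEM, was under 1 CPM in every library, with 0.122, 0.173, 0.203, 0.348 and 0.126 CPM against 0.254, 0.426, 0.362, 0.490 and 0.683 CPM (-1.15 ± 0.38, edgeR adjusted p = 0.09).

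Lymphotoxin β forms the membrane-bound ligand of Ltbr together with lymphotoxin α (Lta), and its value turned on 1 library. Ltb had 23.6, 5.08, 3.68, 2.07 and 4.96 CPM in C57BL/6J libraries and 10.1, 6.82, 5.25, 14.3 and 12.8 CPM in Rag2-/-γc-/- libraries. With all libraries the log2 fold change was -0.33 ± 0.58 (SE; edgeR adjusted p = 0.733). Without C57BL/6J library 1 it was -1.32 ± 0.35 (SE) and past the threshold (edgeR adjusted p = 0.0465), and all 4 remaining C57BL/6J values were below the 5 Rag2-/-γc-/- values. Ltb is abundant in B and T cells, and library 1 had the highest sums of their markers, whose part in the Ltb value was not tested. The 3 other tested ligands were low, with Tnfsf10 (TRAIL) at 0.152 to 0.947 CPM, Tnfsf12 (TWEAK) at 0.196 to 1.63 CPM and Tnfsf13b (BAFF) as given above. Tnfsf12 stood at -0.93 ± 0.48 on the log2 scale (SE; adjusted p = 0.241, edgeR) and overlaps Tnfsf13 on the same strand, so reads shared by the 2 genes are uncertain.

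Of the 7 adaptors, only Traf3 passed the threshold in edgeR (14.3%, all genes 7.79%), and 4 had an unadjusted p under 0.05 (57.1%, all genes 25.7%). DESeq2 called Traf3, Traf5 and Traf6, beside 12.6% of all genes it gave an adjusted p. limma-voom with quality weights called the same genes and Tradd, beside 46.7% of all genes. Traf3 (ENSMUSG00000021277, chr12:111166370-111267153, plus strand) had 33.4, 40.5, 34.2, 38.6 and 34.6 CPM in C57BL/6J libraries and 56.4, 43.0, 43.2, 45.0 and 54.1 CPM in Rag2-/-γc-/- libraries. The groups did not overlap, and the means were 36.2 ± 3.11 and 48.3 ± 6.41 CPM (SD, n = 5 each). The change was small, 1.33-fold lower in C57BL/6J recipients, or -0.42 ± 0.11 on the log2 scale (SE; adjusted p = 0.0369, edgeR). Libraries 10 and 11, at 45.0 and 54.1 CPM, lay above the C57BL/6J range as 7, 8 and 9 did, and the log2 fold change was -0.45 without libraries 7, 8 and 9 (edgeR adjusted p = 0.113) and -0.39 without libraries 10 and 11. The call ended when any of C57BL/6J libraries 1, 4, 5 and 6 or of Rag2-/-γc-/- libraries 7, 9 and 11 was left out (edgeR adjusted p up to 0.0986), and without the filter on low counts.

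Traf6, which also serves Toll-like and interleukin-1 receptors, had 46.6, 55.2, 53.4, 52.7 and 50.7 CPM in C57BL/6J libraries and 108, 93.4, 95.6, 50.3 and 50.5 CPM in Rag2-/-γc-/- libraries (log2 fold change -0.62 ± 0.21 SE, edgeR adjusted p = 0.0936). Libraries 7, 8 and 9 were well above the C57BL/6J range, and libraries 10 and 11 were inside it. Tradd, the adaptor of Tnfrsf1a, had 57.9, 53.4, 51.0, 48.1 and 41.7 CPM against 69.9, 62, 62.1, 53.5 and 59.0 CPM (-0.28 ± 0.10, edgeR adjusted p = 0.121). Traf5 had 12.2, 12.7, 9.44, 11.2 and 11.8 CPM against 6.83, 7.57, 6.84, 9.64 and 9.56 CPM (0.50 ± 0.14, edgeR adjusted p = 0.0517). It was the one adaptor with an unadjusted p under 0.05 and a positive value, and its groups overlapped through library 4. Traf2, which binds many of these receptors directly, had 28.7, 25.4, 24.8, 24.5 and 27.4 CPM against 26.2, 23.4, 22.7, 29.4 and 24.8 CPM (0.05 ± 0.10, edgeR adjusted p = 0.76). Fadd, the bridge to caspase-8, ranged from 10.4 to 19.1 CPM and Traf1, itself an NF-κB target, from 12.9 to 37.2 CPM, and neither passed the threshold (edgeR adjusted p = 0.525 and 0.388). Without libraries 7, 8 and 9 the log2 values were 0.04 for Traf6, -0.16 for Tradd and 0.26 for Traf5 (edgeR adjusted p from 0.526 to 0.929).

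The Rag2-/-γc-/- libraries were split in many members, as in many other genes. In 20 of the 34 members (58.8%) libraries 7, 8 and 9 were all outside the C57BL/6J range, as they were in 41.0% of all tested genes. Libraries 10 and 11 were both inside that range in 16 members (47.1%, all genes 45.5%), and 9 members (26.5%, all genes 15.1%) showed both features, among them Traf6, Tnfrsf23, Tnfrsf10b, Tnfrsf14 and Tnfrsf1a. The labels used here give no batch or other difference between these libraries. Without libraries 10 and 11, edgeR called 7 members higher and 11 lower, 18 of 34, while it called 36.7% of all genes. Tnfrsf21 then stood at 1.61, Traf6 at -0.93, Tnfrsf23 at -1.37 and Ltbr at -0.81 on the log2 scale, all past the threshold, against 0.40, 0.04, 0.06 and -0.11 without libraries 7, 8 and 9, and Cd27 no longer was (2.02, edgeR adjusted p = 0.0532). Without libraries 7, 8 and 9, edgeR called 0 members, and 1.88% of all genes, and 8 of 34 members and 13.2% of all genes had an unadjusted p under 0.05. Both exclusions were chosen after the values were seen, so the first count is no independent support.

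**Figure D5:**
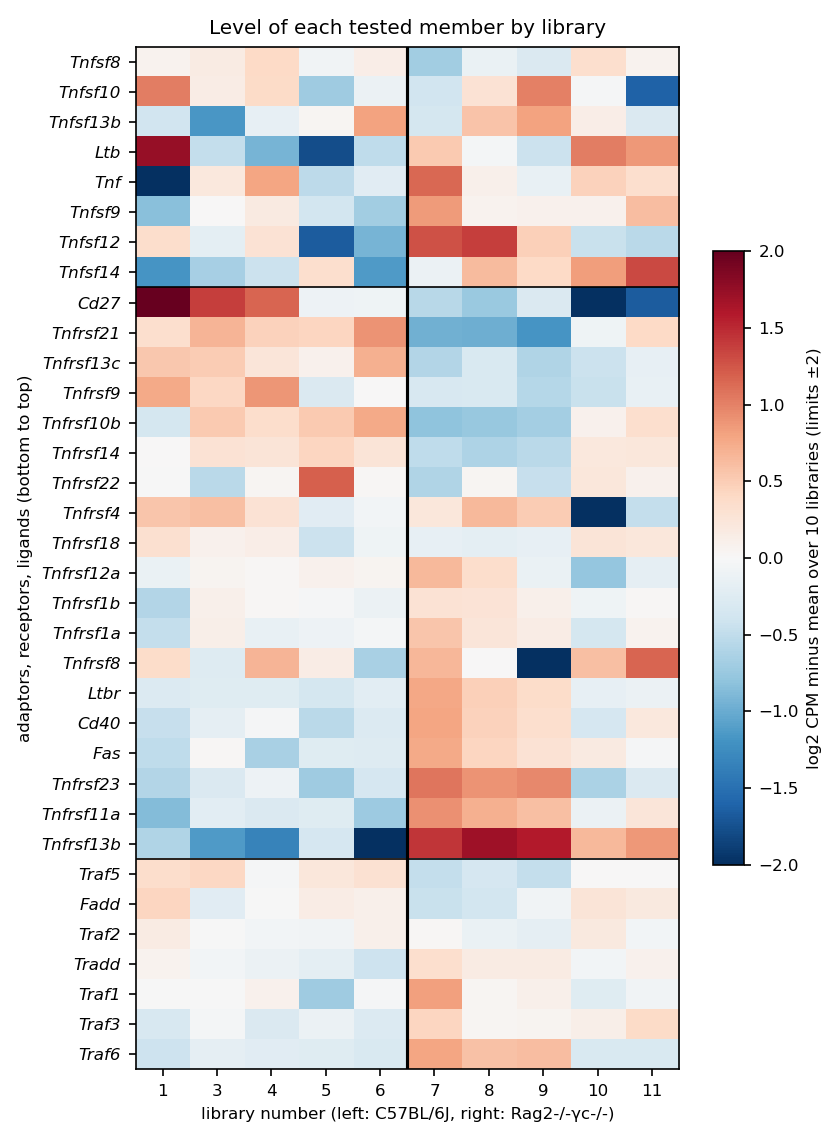
Log2 CPM of each tested member minus its mean over the 10 libraries (colour, limits ±2), with libraries as columns, C57BL/6J left and Rag2-/-γc-/- right of the black line. Libraries 7, 8 and 9 form a block of like colour in many rows, such as Traf6 and Tnfrsf23, in which libraries 10 and 11 look like the C57BL/6J libraries, while Tnfrsf13b and Tnfrsf13c keep 1 colour over all 5 Rag2-/-γc-/- libraries.

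Of 60 further genes of the pathway, 50 were tested, and 0 were higher and 4 lower in C57BL/6J recipients (8.0%, beside 4.47% of all genes). The 4 were Casp8, Nfkb1, Relb and Map3k5. In edgeR 18 of 50 (36.0%, all genes 25.7%) had an unadjusted p under 0.05, 2 of them with a positive value. DESeq2 called 2 pathway genes higher and 5 lower, beside 12.6% of all genes it gave an adjusted p. limma-voom with quality weights called 4 higher and 22 lower, beside 46.7% of all genes. In edgeR the median log2 fold change of the 50 was -0.14, with 36 below 0 and 14 above. The caspase of the death-domain receptors, Casp8, had 92.5, 91.2, 84.9, 78.3 and 66.5 CPM against 116, 112, 104, 107 and 122 CPM (-0.44 ± 0.10 SE, edgeR adjusted p = 0.0216). Nfkb1, which encodes the p105 precursor of the NF-κB subunit p50, had 226, 204, 199, 205 and 183 CPM against 238, 264, 265, 265 and 254 CPM (-0.34 ± 0.08, edgeR adjusted p = 0.0224). In these genes and in Relb all Rag2-/-γc-/- libraries, 10 and 11 included, lay above all C57BL/6J libraries. The same held for Tbk1, which was not called, so this was seen in 4 of 50 pathway genes (all genes 4.37%). Without libraries 7, 8 and 9, edgeR called 0 pathway genes higher and 0 lower. Relb, the partner of p52 in the alternative pathway, had 36.4, 29.1, 34.9, 27.4 and 31.5 CPM against 56.0, 40.3, 40.5, 41.5 and 47.3 CPM (-0.50 ± 0.12, edgeR adjusted p = 0.0291). Map3k5 (ASK1), a stress kinase upstream of JNK and p38, had 15.8, 21.4, 17.5, 17.7 and 16.7 CPM against 21.1, 24.1, 21.8, 26.3 and 24.4 CPM (-0.40 ± 0.11, edgeR adjusted p = 0.0434). These changes were all under 1.5-fold, and each call ended without at least 3 single libraries. They were C57BL/6J 5 and Rag2-/-γc-/- 7 or 8 for Casp8 (edgeR adjusted p up to 0.0551), and C57BL/6J 3, 4 or 6 and Rag2-/-γc-/- 8 or 9 for Nfkb1 (up to 0.0685). For Relb they were C57BL/6J 3, 5 or 6 and Rag2-/-γc-/- 7 (up to 0.0725), and for Map3k5 C57BL/6J 1, 4, 5 or 6 and Rag2-/-γc-/- 8, 9 or 11 (up to 0.115).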

How the data were processed

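Poly(A)-selected RNA of GFP+ splenocytes was sequenced as single reads from NEBNext Ultra libraries, per the labels' protocols. The authors deposited expected counts per Ensembl gene, which divide reads that fit several genes. The submitters' processing notes name GRCm38 as build, RSEM 1.2.30, edgeR, STAR 2.5.2a and cutadapt 1.11. What each tool did, the annotation and any use of strand were not given in the sources used here. Between 15.3 and 17.3% of a library's values were not whole, and all were rounded.

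Counts were fitted with edgeR 4.0.16 (R 4.3.3; TMM, filterByExpr with a minimum count of 10 and total of 15, a group term alone) over 13966 genes and tested on simulated data. SE is the unshrunken coefficient over the root of F. DESeq2 1.42.0, limma-voom (limma 3.58.1), other scalings and filters, and each library left out were alternatives. Exon lengths came from GENCODE M21 and start sites from RefSeq. Named with every value were members past the threshold, members with an unadjusted p under 0.05, and the 4 ligands, receptors and adaptors highest per kilobase. Members and lists were chosen with earlier results of these data known.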

Additional observations from a re-analysis of the deposited data

Results flagged for a closer look

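In 5 of 68 sets of 5 values (34 members in 2 groups) 1 library lay far from the other 4, with its gap to the nearest value above 0.71 of the whole range; chance alone flags about 1 in 20 sets. Ltb was at 23.6 CPM in C57BL/6J library 1 and at 2.07 to 5.08 CPM in the other 4. Cd27 was at 3.02 CPM in the same library and at 0.37 to 1.04 CPM in the others. Library 1 also had the highest B and plasma cell marker sum (159 CPM), whose part was not tested. Traf1 was at 12.9 CPM in C57BL/6J library 5 (20.8 to 22.3 in the others) and at 37.2 CPM in Rag2-/-γc-/- library 7 (17.9 to 22.7 in the others). Tnfrsf22 was at 1.48 CPM in C57BL/6J library 5 and at 0.444 to 0.66 CPM in the others.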

How the results depend on the processing

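Tnfrsf13b, Tnfrsf13c and Tnfrsf11a kept their direction and call in all alternatives but the one without Rag2-/-γc-/- libraries 7, 8 and 9. Of all recomputed values, 587 kept direction and side of the threshold, 54 became called, 46 lost a call, and 29 changed sign, none of these for a member past the threshold; the causes were not tested. Members higher (2) and lower (3) numbered 5 and 9 in DESeq2, 8 and 11 in limma-voom with quality weights, 7 and 11 without libraries 10 and 11, and 0 and 0 without libraries 7, 8 and 9. With 1 CPM in 5 libraries required, 1 was higher, since Cd27 was not tested. Leaving out each library in turn gave 1 to 4 higher and 2 to 8 lower, the most without Rag2-/-γc-/- library 10. Pathway genes (0 higher, 4 lower) numbered 2 higher in DESeq2, 4 higher and 22 lower in limma-voom, 1 higher without a filter, 2 higher and 21 lower without libraries 10 and 11, 0 lower without 7, 8 and 9, and 0 to 1 higher and 1 to 11 lower with single libraries left out. All genes called (464 higher, 624 lower) numbered 971 and 1210 in DESeq2, 3306 and 3217 in limma-voom, 2786 and 2518 without libraries 10 and 11, 148 and 127 without 7, 8 and 9, and 275 to 1076 and 304 to 1323 with single libraries left out.

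Signs changed without libraries 7, 8 and 9 for Fadd (-0.11), Traf1 (0.05), Traf2 (-0.04), Traf6 (0.04), Tnfsf12 (0.23), Tnfsf13b (0.04), Tnfsf8 (-0.06), Tnfrsf12a (0.46), Tnfrsf18 (-0.21), Tnfrsf1a (0.01) and Tnfrsf23 (0.06). Without libraries 10 and 11 they changed for Ltb (0.08), Tnfsf10 (-0.14), Tnfrsf4 (-0.20) and Tnfrsf8 (0.16), and in limma-voom for Tnfsf10 (-0.37), Tnfrsf4 (-0.17) and Tnfrsf8 (0.87). With single libraries left out, Tnfsf10 ran from -0.08 to 0.53, Tnfrsf12a from -0.20 to 0.14, Tnfrsf18 from -0.06 to 0.11 and Tnfrsf4 from -0.02 to 0.43. No paired analysis was possible because the title numbers of the groups are not shared. Members under 1 CPM rest on few counts, and differences there may not be detectable at this depth. In the simulated data, with 200 of 13966 genes changed, edgeR recovered 13% of 1.5-fold, 63.5% of 2-fold and 91.5% of 4-fold changes. A member at any level that was not called is thus not shown to be unchanged.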
